A study of Rattus norvegicus with 42 samples.

Results

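LIF and the ANX fraction were compared as inducers of rat metanephric mesenchyme over the opening days of culture. The 8 arrays were chosen by the inducer and day in their labels, 2 with LIF and 2 with ANX on day 1 and the same on day 2, out of 42 arrays in the whole series. The mesenchyme was dissected at embryonic day 13.5, freed of the ureteric bud by trypsin and needles, and cultured as explants on collagen-coated filters. LIF, leukaemia inhibitory factor, is a secreted cytokine. What the ANX fraction contains, and the dose of either inducer, are not given in the sources used here, nor is the rat strain. LIF cultures, ANX cultures and the uninduced controls all received the same medium, which held an FGF and a TGF beside insulin, transferrin, selenium, T3, dexamethasone and prostaglandin, so each difference between LIF and ANX was measured on top of those factors. Arrays of one group were biological duplicates by the study design. The uninduced cultures of days 1 and 2, and cultures with NGAL, the third inducer, serve here only to place the levels.

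The metanephric mesenchyme is the embryonic tissue whose progenitors convert into the epithelium of the nephron when an inducing signal reaches them. LIF binds a receptor made of the LIF receptor and gp130 (encoded by Il6st), which activates JAK kinases and the transcription factor STAT3. Socs3 is a classical STAT3 target that feeds back to damp this receptor. During conversion the mesenchyme is known to turn on Pax8, Wnt4 and Notch ligands such as Jag1, and later epithelial cadherin.

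Values are RMA intensities, on a linear scale, and differences are LIF minus ANX on the log2 scale, averaged over both days with each day weighted equally. A gene is called when its limma p-value, adjusted by the Benjamini-Hochberg method over all 11388 genes tested, was under 0.05. An intensity of 55.2 (log2 5.79), the 40th percentile of all values, was taken as the threshold of measurable signal. For most named genes with a group mean below it, a floored difference is also given, in which such means were set to the threshold.

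The tissue label was compared with marker genes. All 21 nephron progenitor genes with a probe set were above the threshold in at least 1 of the 4 groups, with Wt1 at a mean intensity of 1722 under LIF and 1866 under ANX, Sall1 at 2288 and 1938, and Eya1 at 2718 and 2275. Of 16 ureteric bud and collecting duct genes with a probe set, 8 were below the threshold in all 4 groups. Replicate arrays correlated at 0.980 to 0.988 over the genes tested. The log2 ratio of the 3' to the 5' probe set of the dap control transcript was 0.84 to 1.37 on 6 of the 8 arrays, but 2.16 on LIF day 2 replicate 2 and 2.35 on ANX day 2 replicate 2. The same LIF array also had a 5S rRNA signal of log2 8.70, against 7.00 to 7.47 on the other 7. Counts without both of these arrays are given beside the results.

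Under LIF, the progenitor co-activator Eya2, the growth factor binding protein Igfbp2, the receptor Fgfr2, the feedback inhibitor Socs3 and the interferon-inducible GTPase Igtp were higher than under ANX. Under ANX, the chemokines Cxcl1 and Ccl2, the prostaglandin synthase Ptgs2, the iron-carrier lipocalin Lcn2 and the growth factor Bmp2 were higher. In all, 71 of 11388 genes were called (0.623%), 31 higher under LIF (0.272%) and 40 higher under ANX (0.351%). The absolute differences of the called genes ranged from 0.36 to 3.84 with a median of 0.90, and 31 were at least 2-fold, 13 higher under LIF and 18 higher under ANX. Across all genes tested the median difference was -0.01, with 5246 genes above 0 and 6142 below. In bulk tissue, fewer cells of a type and less RNA per cell cannot be told apart.

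Each called gene differed in the same direction on both days, and 64 of the 71 differed by more on day 2. On 67 of them the LIF and ANX arrays did not overlap on either day. Of all genes tested 10.7% had such an arrangement, 4.14% with LIF above and 6.55% with LIF below. The 71 were called on these same arrays, so the count of 67 is a description only. Taken alone, day 2 gave 17 called genes (0.149%), 9 higher under LIF (0.079%) and 8 higher under ANX (0.0702%), and 16 of these were among the 71. The gene called on day 2 only was Mmp9, a matrix metalloprotease, at -1.08 on day 2 and -0.64 averaged over both days (SE 0.15, limma adjusted p = 0.0503), with 3 of its 4 group means below the threshold. Day 1 alone gave 0 called genes by limma (0%), where 216 genes had an unadjusted p under 0.05 and no adjusted p was below 0.212. The change of the difference from day 1 to day 2 was also tested, and 0 genes were called by limma (82 at an unadjusted p under 0.05), so the larger differences on day 2 are a description and not a tested change.

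**Figure D1:**
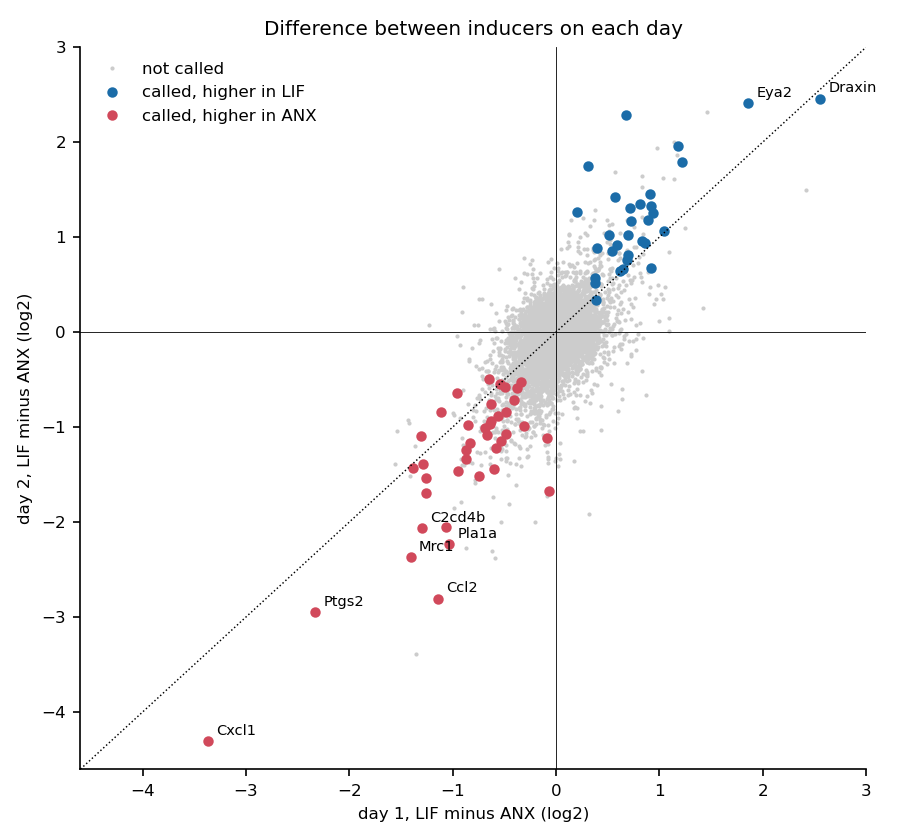
Difference between LIF and ANX cultures (log2 of intensity, LIF minus ANX) on day 1, horizontal axis, and on day 2, vertical axis, for all 11388 genes tested; blue points are the 31 genes called higher under LIF, red points the 40 called higher under ANX, and the dotted line marks equal differences. Every called gene lies in the quadrant of its direction, and Cxcl1 lies farthest out at -3.37 on day 1 and -4.30 on day 2.

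The number of calls depended on single arrays. Leaving out LIF day 1 replicate 2 took it from 71 to 9, and ANX day 1 replicate 2 took it to 6. Without a LIF array of day 2 it was 13 (replicate 1 left out) or 18 (replicate 2), and without ANX day 2 replicate 1 it was 15. It stayed higher, at 44, 58 and 43, when the array left out was, in that order, replicate 1 of LIF day 1, of ANX day 1, or replicate 2 of ANX day 2. Igtp, Gna14, Tspan5 and Cxcl1 were the 4 genes called whichever of the 8 arrays was left out. Without both day 2 replicate 2 arrays, 19 genes were called, all of them among the 71; of the genes named below these included Eya2, Igtp, Gna14, Ntf3, Cyb561, Tspan5, Ostf1, Cxcl1, Mrc1 and Sox17. Others lost their call. On the LIF side these included Draxin (2.60), Igfbp2 (1.72), Socs3 (1.21) and Fgfr2 (0.90). On the ANX side they included Ptgs2 (-2.16), C2cd4b (-1.75), Plet1 (-1.61), Ccl2 (-1.56), Lcn2 (-1.49), Bmp2 (-1.23), Rgs5 (-1.23) and Spry1 (-1.02). With the dap ratio of each array as a covariate, all 71 genes were called. No called gene changed direction under any of these settings.

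The LIF receptor pathway itself was described first. Socs3, the feedback inhibitor of the LIF receptor, read 349 and 298 on the LIF arrays of day 1 and 413 and 223 on those of day 2, against 208 and 118, then 159 and 132, under ANX. Its lowest LIF array was above its highest ANX array. Socs3 was higher under LIF by 1.05 (SE 0.23, limma adjusted p = 0.0242, 2.08-fold), and with single arrays left out its adjusted p rose to as much as 0.217. Uninduced cultures read 89.2 to 120. Socs3 was higher under LIF than in those controls (1.63, limma adjusted p = 2.92e-05), and under ANX it was 0.58 above them (adjusted p = 0.0689).

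Receptor and transducer transcripts did not pass the test. The ligand-binding chain Lifr stayed near the threshold, at 45.3 to 68.9 on all 8 arrays (difference 0.05, 95% confidence interval -0.17 to 0.27; floored 0.01). Il6st, the gp130 chain, ranged from 530 to 1070 under LIF and from 563 to 1488 under ANX (difference -0.13, interval -1.14 to 0.88). Stat3 ranged from 800 to 1921 under LIF and from 767 to 1883 under ANX (0.25, interval -0.55 to 1.05). Both intervals include a change of 2-fold, and within each inducer the highest Stat3 value was on the day 2 array with the high dap ratio; the part of that ratio in the result was not tested. Lif itself was not measured, with its highest group mean at log2 4.82. Of 17 measured genes of LIF receptor and STAT3 signalling, Socs3 was the 1 called. The list's median was -0.01, the same as over all genes. For this list and those below, the shares called over all genes were 0.272% higher under LIF and 0.351% higher under ANX. In the same comparison, 755 of the 11388 genes tested had an unadjusted p under 0.05.

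Known STAT3 and acute-phase targets lay on both sides of 0. Of 23 measured, 0 were called higher under LIF by limma and 1, Lcn2, was called higher under ANX (8 had an unadjusted p under 0.05), with a median of 0.00 and 12 members above 0. A2m (alpha-2-macroglobulin, a protease inhibitor of the acute phase) was 1.17 higher under LIF (SE 0.31, limma adjusted p = 0.0937), Il1r2 (a decoy receptor for interleukin 1) 0.93 (adjusted p = 0.21) and Bcl3 0.84 (adjusted p = 0.28). None of these passed the test. In this list 5 of the 23 members had LIF arrays above the ANX arrays on both days and 5 had them below. Over all genes tested those shares were 4.14% and 6.55%.

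Igtp, an interferon-inducible GTPase of the IRG family, had the smallest adjusted p of all genes. Its intensities were 168 and 252 on day 1 and 295 and 332 on day 2 under LIF, and 89.6, 87.1, 72.7 and 113 under ANX. All 4 LIF arrays were above all 4 ANX arrays and above the uninduced cultures, which read 52.2 to 133. The difference was 1.5 (SE 0.17, limma adjusted p = 6.12e-05, 2.84-fold), and it was called on day 2 alone as well. Igtp was the 1 called of 16 measured interferon-response genes, the list's median was -0.02, and the interferon-inducible chemokine Cxcl10 was -1.47 (SE 0.41, adjusted p = 0.128).

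The 250 bases before the Igtp start are shown because they hold a palindromic STAT motif. They were taken from the RefSeq promoter table (GRCr8, chr10:42874797-42875046, plus strand), and capitals mark the match, 114 to 106 bases before the start.
Igtp: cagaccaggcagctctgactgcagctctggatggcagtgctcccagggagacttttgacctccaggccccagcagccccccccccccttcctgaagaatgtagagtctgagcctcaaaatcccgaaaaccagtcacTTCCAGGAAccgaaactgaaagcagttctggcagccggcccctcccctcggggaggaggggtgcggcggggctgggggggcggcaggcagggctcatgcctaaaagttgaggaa
The motif searched was TTCNNNGAA on both strands, and 7.67% of the 33469 promoters of this length in the table hold it. Of the 15 genes named as most increased under LIF, 12 matched the table with 15 promoters, and Igtp's was the 1 with a match (6.67%). Of the 15 named as most increased under ANX, 12 matched with 18 promoters, and 1, of Scg2, held it (5.56%). These shares are near that of all promoters, and a match is a description of letters and not evidence of binding.

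Among nephron progenitor genes, Eya2 stood out. Eya2 encodes a transcriptional co-activator and phosphatase of the Eyes absent family, partners of homeodomain proteins in the nephron progenitor. It read 671 and 855 on day 1 and 1248 and 1138 on day 2 under LIF, against 246, 178, 135 and 370 under ANX. The lowest LIF array was well above the highest ANX array, and the ANX values overlapped those of uninduced cultures, 130 to 280. Eya2 was 2.13 higher under LIF (SE 0.41, limma adjusted p = 0.0126, 4.39-fold), and its other probe set differed the same way. Of 21 measured progenitor genes, Eya2 was the 1 called, with a median of 0.19 and 15 members above 0. The other 6 were below 0. The lowest was Itga8, an integrin chain of the mesenchyme, at -1.04 (SE 0.26, limma adjusted p = 0.0559), which was not called.

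Draxin, a secreted antagonist of Wnt signalling and an axon guidance cue, had the largest difference on the LIF side. It read 256, 424, 183 and 440 under LIF and 86.3, 36.6, 29.0 and 91.9 under ANX. The groups did not overlap, and ANX values were on both sides of the threshold. The difference was 2.50 (SE 0.48, limma adjusted p = 0.0126; floored 2.46). Igfbp2, which binds insulin-like growth factors outside the cell, read 556 and 513 on day 1 and 1654 and 1391 on day 2 under LIF, and 289, 191, 347 and 439 under ANX. It was higher by 1.57 (SE 0.31, adjusted p = 0.0131), and its LIF arrays rose from day 1 to day 2 while the difference itself was not shown to change.

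Fgfr2, a receptor for fibroblast growth factors, was higher under LIF by 0.95 (SE 0.16, limma adjusted p = 0.00639). It read 792, 848, 1178 and 1531 under LIF against 580, 424, 562 and 635 under ANX, with no overlap. Its other 4 probe sets differed by 0.79 (SE 0.47), 0.51 (SE 0.51), 0.46 (SE 0.24) and 0.08 (SE 0.13), and with all its probe sets averaged Fgfr2 was 0.56 higher and not called (limma adjusted p = 0.685). It was the 1 gene called among 19 measured EGF-family ligands and receptor tyrosine kinases, whose median was -0.02. Fgfr2 was called on day 2 alone, as was Gbx2, a homeobox transcription factor (1.01, limma adjusted p = 0.0126). Gbx2 had 3 of 4 group means below the threshold, and its floored difference was 0.48.

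Tspan5, a tetraspanin membrane protein, had a small spread. Its LIF arrays read 712, 744, 1059 and 954 and its ANX arrays 450, 341, 438 and 448 (difference 1.04, SE 0.14, limma adjusted p = 0.000417). Gna14, a G protein alpha subunit of the Gq class, was near background on day 1 under LIF at 27.0 and 32.2 and reached 78.7 and 153 on day 2, while ANX arrays stayed at 17.3 to 24.8. Its difference was 1.48 (SE 0.23, adjusted p = 0.00233), but 0.50 when floored, since only LIF day 2 was above the threshold. The neurotrophin Ntf3 was 1.12 higher (adjusted p = 0.0131), at 143 to 208 under LIF and 63.5 to 108 under ANX. Cyb561, an electron-carrying cytochrome of secretory vesicles, was 1.10 higher, Trim36, a ubiquitin ligase, 1.08 (floored 1.07), and Ostf1 0.90, with limma adjusted p from 0.00639 to 0.0229. Fam171b was 1.18 higher (adjusted p = 0.0344), at 633 to 1724 under LIF, 396 to 683 under ANX and 455 to 529 in fresh mesenchyme.

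**Figure D2:**
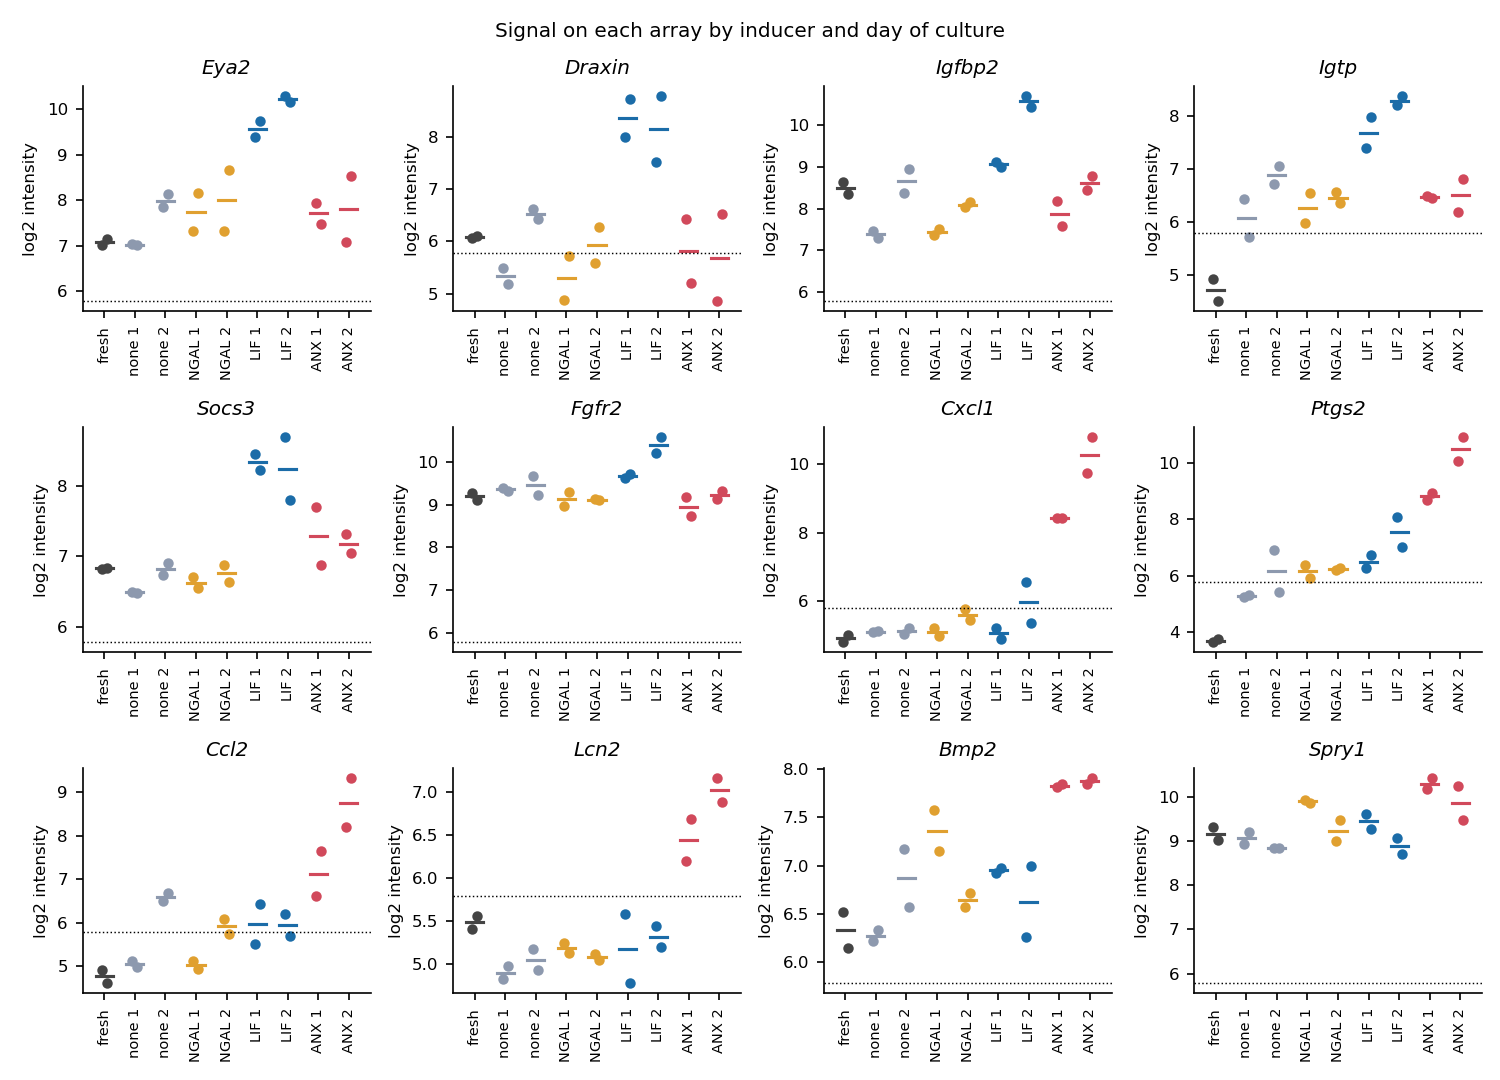
Intensity (log2) on each array for 12 named genes in fresh mesenchyme, uninduced culture (none), NGAL, LIF and ANX cultures on days 1 and 2; points are the 2 arrays of a group, bars their mean and the dotted line the threshold of log2 5.79. In each panel the LIF and ANX points do not overlap on either day, with Eya2 to Fgfr2 higher under LIF and Cxcl1 to Spry1 higher under ANX. Most of these genes were named by a rule that required this, so it is a description only.

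On the ANX side, the largest difference was in Cxcl1, a chemokine that attracts neutrophils. The ANX arrays read 345 and 342 on day 1 and 853 and 1763 on day 2, whereas the LIF arrays read 37.2, 29.8, 94.7 and 40.7. Uninduced cultures read 33.0 to 37.1 and NGAL cultures 31.4 to 53.9, so outside ANX only LIF day 2 replicate 1 was above the threshold on these days. The difference was -3.84 (SE 0.47, limma adjusted p = 0.000124), which is 14.3-fold, and -3.47 when floored.

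Ptgs2, the inducible cyclooxygenase that makes prostaglandin precursors, read 419 and 493 on day 1 and 1079 and 1955 on day 2 under ANX. Under LIF it read 77.2, 106, 272 and 130. The ranges did not overlap, and the difference was -2.64 (SE 0.46, limma adjusted p = 0.00791, 6.23-fold). Ptgs2os, an antisense transcript at the Ptgs2 locus, was lower under LIF by -1.13 (adjusted p = 0.0188), with 3 of 4 group means below the threshold and a floored difference of -0.38. Pla2g4a, the cytosolic phospholipase A2 that releases arachidonic acid for Ptgs2, was -1.21 (SE 0.27, adjusted p = 0.0306). Its LIF arrays read 249 to 334, close to fresh mesenchyme at 292 and 295, while ANX arrays read 427 to 964 and uninduced cultures 594 to 713.

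Ccl2, a chemokine for monocytes, read 97.5, 200, 293 and 640 under ANX and 46.0, 86.5, 74.1 and 51.7 under LIF. Within each day the groups did not overlap, and the difference was -1.98 (SE 0.39, limma adjusted p = 0.0136). Cxcl1, Ptgs2 and Ccl2 were the 3 genes called, all higher under ANX, of 22 measured NF-kB, chemokine and prostaglandin genes. The median of this list was -0.30 and 19 of its 22 members were below 0, against 6142 of 11388 over all genes. Cxcl10 and Nfkbiz, a nuclear regulator of NF-kB, were -1.47 and -1.04, with limma adjusted p of 0.128 and 0.341.

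Lcn2, which encodes NGAL, the protein used as the third inducer of the series, was also higher under ANX. It read 73.5 and 103 on day 1 and 143 and 118 on day 2, against 47.8, 27.5, 43.4 and 36.8 under LIF. All 4 ANX arrays were above the threshold and all 4 LIF arrays were below it. The difference was -1.48 (SE 0.28, limma adjusted p = 0.0126) and -0.94 when floored. Cultures given NGAL protein read 33.2 to 37.9, within the range of the LIF arrays. Lcn2 was the 1 gene called of 12 measured iron-handling genes, with a list median of -0.06.

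Promoter bases of Cxcl1 and Lcn2 are shown because both hold a match to the NF-kB consensus. They come from the same RefSeq table (GRCr8) and cover the 250 bases before the start, at chr14:17479322-17479571 on the minus strand for Cxcl1 and chr3:36081781-36082030 on the minus strand for Lcn2. Capitals mark the matches, at 84 to 74 bases before the start in Cxcl1, where overlapping matches on both strands run together, and at 242 to 233 bases before it in Lcn2.
Cxcl1: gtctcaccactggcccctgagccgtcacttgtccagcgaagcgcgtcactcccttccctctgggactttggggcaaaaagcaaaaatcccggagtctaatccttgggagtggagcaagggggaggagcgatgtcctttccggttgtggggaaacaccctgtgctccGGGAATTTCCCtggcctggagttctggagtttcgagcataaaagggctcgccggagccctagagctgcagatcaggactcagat
Lcn2: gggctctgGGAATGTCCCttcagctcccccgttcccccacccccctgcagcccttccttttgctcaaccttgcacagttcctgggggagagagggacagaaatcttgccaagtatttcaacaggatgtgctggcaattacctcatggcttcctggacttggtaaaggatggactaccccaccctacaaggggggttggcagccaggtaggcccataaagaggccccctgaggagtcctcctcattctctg
Of all 33469 promoters, 6.33% hold this consensus. Of the 18 promoters matched to the genes most increased under ANX, 2 hold it (11.1%), and of the 15 matched on the LIF side 1 does (6.67%), that of Socs3. An AP-1 motif, TGANTCA, was in 2 promoters on the ANX side, of C2cd4b and Plet1, and in 0 on the LIF side, against 6.34% of all promoters. With so few promoters these shares were not tested, and nothing about the factors follows from them.

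C2cd4a and C2cd4b, related genes for small proteins induced by inflammatory cytokines, were both higher under ANX. C2cd4b read 364 to 484 under ANX and 105 to 183 under LIF (-1.68, SE 0.29, limma adjusted p = 0.00639), and C2cd4a 182 to 294 and 79.5 to 134 (-1.33, SE 0.27, adjusted p = 0.0165). Plet1, a surface protein of epithelial progenitors, read 491 to 907 under ANX and 161 to 282 under LIF (-1.56, adjusted p = 0.0188). Pla1a, a phospholipase specific for phosphatidylserine, was -1.63 (adjusted p = 0.0456) and lost its call whenever any single array was left out. Scg2, a secretory granule protein, was -1.20 (adjusted p = 0.0263), or -0.55 when floored.

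Bmp2, a ligand of the bone morphogenetic protein family, was steady at 224, 229, 230 and 240 under ANX, and read 122, 126, 76.7 and 128 under LIF. It was -1.06 (SE 0.23, limma adjusted p = 0.0291) and was the 1 gene called of 24 measured activin and BMP genes, whose median was -0.06. Fst, an extracellular inhibitor of activin, was -1.28 (SE 0.38, adjusted p = 0.181). Fst changed its call with the choice of probe set: with all its probe sets averaged it was -1.22 (adjusted p = 0.0241). Fstl3, another activin inhibitor, leaned the other way at 0.94 (limma adjusted p = 0.0632). Neither Fst nor Fstl3 was called in the main fit, so opposite directions were not shown.

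Spry1, a feedback inhibitor of FGF receptor signalling, read 1158, 1371, 1211 and 712 under ANX and 784, 620, 535 and 417 under LIF. Its arrays did not overlap within either day (-0.91, SE 0.20, limma adjusted p = 0.0306). Spry1 was the 1 gene called of 13 measured FGF and MAPK feedback genes; 12 of the 13 were below 0 with a median of -0.18, and Spry2 and Spry4 were -0.53 and -0.54 (adjusted p = 0.122 and 0.128). In the main fit Fgfr2 and Spry1 thus differed in opposite directions between the inducers, but neither call held under every alternative. Fgfr2 was not called with its probe sets averaged (limma adjusted p = 0.685), nor Spry1 with only the 8 arrays in the fit (limma adjusted p = 0.0624). Of 16 measured AP-1 and immediate early genes 0 were called by limma (4 at an unadjusted p under 0.05), with a median of -0.23 and 14 below 0.

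Among genes of early nephron induction, Bmp2 was the 1 that passed the test between inducers. Pax8, a transcription factor of the induced mesenchyme, read 837 and 451 on day 1 and 442 and 409 on day 2 under LIF, and 830, 423, 429 and 423 under ANX (0.02, interval -0.62 to 0.67). Both inducers had higher Pax8 than uninduced cultures, by 1.72 for LIF and 1.69 for ANX (limma adjusted p = 0.000417 and 0.000553). Jag1, a Notch ligand, was 1.80 and 1.34 above control under LIF and ANX, and 0.46 apart (interval -0.09 to 1.00). Wnt4, the ligand that drives epithelial conversion, was 0.76 apart (interval -0.05 to 1.57), and Lef1, a transcription factor of the Wnt pathway, was -0.71 apart (adjusted p = 0.0653). Lef1 was called with array weights (adjusted p = 0.0163) and with only the 8 arrays in the fit (adjusted p = 0.0276). Of 21 measured genes of early induction and Notch signalling, 0 were higher under LIF and 1, Bmp2, was higher under ANX, with a median of 0.01.

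Epithelial genes did not pass the test on these days. Cdh1, epithelial cadherin, read 15.5 to 17.9 on all 8 arrays, below the threshold. Of 24 measured junction and keratin genes 0 were called by limma (1 at an unadjusted p under 0.05), with a median of 0.02. Proliferation genes lay within a narrow band, with 0 of 26 called (0 at an unadjusted p under 0.05) and differences from -0.18 to 0.24. Cholesterol synthesis was as narrow, with 0 of 17 called (0 at an unadjusted p under 0.05) and differences from -0.15 to 0.13.

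Further lists had no called member and a median below that of all genes. Of 19 measured genes of amino acid stress and serine synthesis 0 were called by limma, while 9 had an unadjusted p under 0.05, 18 were below 0 and the median was -0.45. Asns, which makes asparagine, was -0.91 (adjusted p = 0.119), and the exception was the cystine carrier Slc7a11 at 0.62. Of 15 measured p53 targets and growth arrest genes 0 were called, 7 had an unadjusted p under 0.05, 13 were below 0 and the median was -0.30. Cdkn1a, the cell cycle inhibitor p21, was -1.13 (SE 0.27, limma adjusted p = 0.0559), just outside the threshold. Of 24 measured matrix proteases and inhibitors 0 were called, 9 had an unadjusted p under 0.05, 17 were below 0 and the median was -0.13.

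Genes of other cell types also differed. Of 17 measured endothelial markers 0 were higher under LIF and 2 were higher under ANX, with a median of -0.29 and 15 below 0. The called pair were Sox17, a transcription factor of arterial endothelium, at 136 to 345 under ANX and 64.5 to 118 under LIF (-1.41, SE 0.27, limma adjusted p = 0.0126), and Ramp2, a receptor partner for adrenomedullin (-0.88, SE 0.20, adjusted p = 0.0306). The other 2 Sox17 probe sets, both with means below the threshold, were at -0.28 (SE 0.16) and 0.01 (SE 0.13). The defining markers Pecam1 and Kdr were -0.05 and -0.29 and did not pass the test. Summed intensity of the endothelial list was 1863 to 2979 on the LIF arrays, 2408 to 4001 on the ANX arrays and 3020 to 5866 in uninduced cultures. Rgs5, a regulator of G protein signalling in pericytes (-1.39, limma adjusted p = 0.0165), was also higher under ANX. So was Lmo2, a transcriptional co-factor of blood and endothelial progenitors (-1.10, limma adjusted p = 0.049). Lmo2 lost its call without a filter (limma adjusted p = 0.0543), after renormalization (0.0677) and with probe sets averaged (0.0536). It was also not called with only the 8 arrays in the fit (0.0794) or with a replicate block (0.0535). The part of endothelial content in these differences was not tested.

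Mrc1, the mannose receptor of macrophages and some endothelia, read 78.2, 231, 466 and 167 under ANX and 42.2 to 60.7 under LIF. Its ANX arrays varied widely (-1.89, SE 0.40, limma adjusted p = 0.0224; floored -1.81). Of 13 measured macrophage and leukocyte markers Mrc1 was the 1 called, with a list median of 0.00, and Ptprc, Csf1r and Cd163 were below the threshold. The summed list, which includes Mrc1, ran from 914 to 1057 under LIF, from 1004 to 1448 under ANX and from 1102 to 1503 in uninduced cultures. Of its 13 members 6 were above 0 and 7 below. Lyz2, C1qa and Tyrobp were 0.30, 0.26 and 0.24, on the LIF side, and were not called. Renal stroma had 1 called gene of 25 measured, with a median of -0.16. The called gene was Ntn1, the axon guidance cue netrin 1 (-1.0, limma adjusted p = 0.0169, floored -0.70). The 2 other Ntn1 probe sets, both with means below the threshold, were at 0.01 (SE 0.12) and -0.01 (SE 0.08). Of 11 ureteric bud, 9 podocyte, 11 tubule, 10 erythroid, 11 neural, 12 muscle and 8 cartilage markers measured, 0 were called by limma, with 3 neural, 1 muscle and 1 cartilage marker at an unadjusted p under 0.05.

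**Figure D3:**
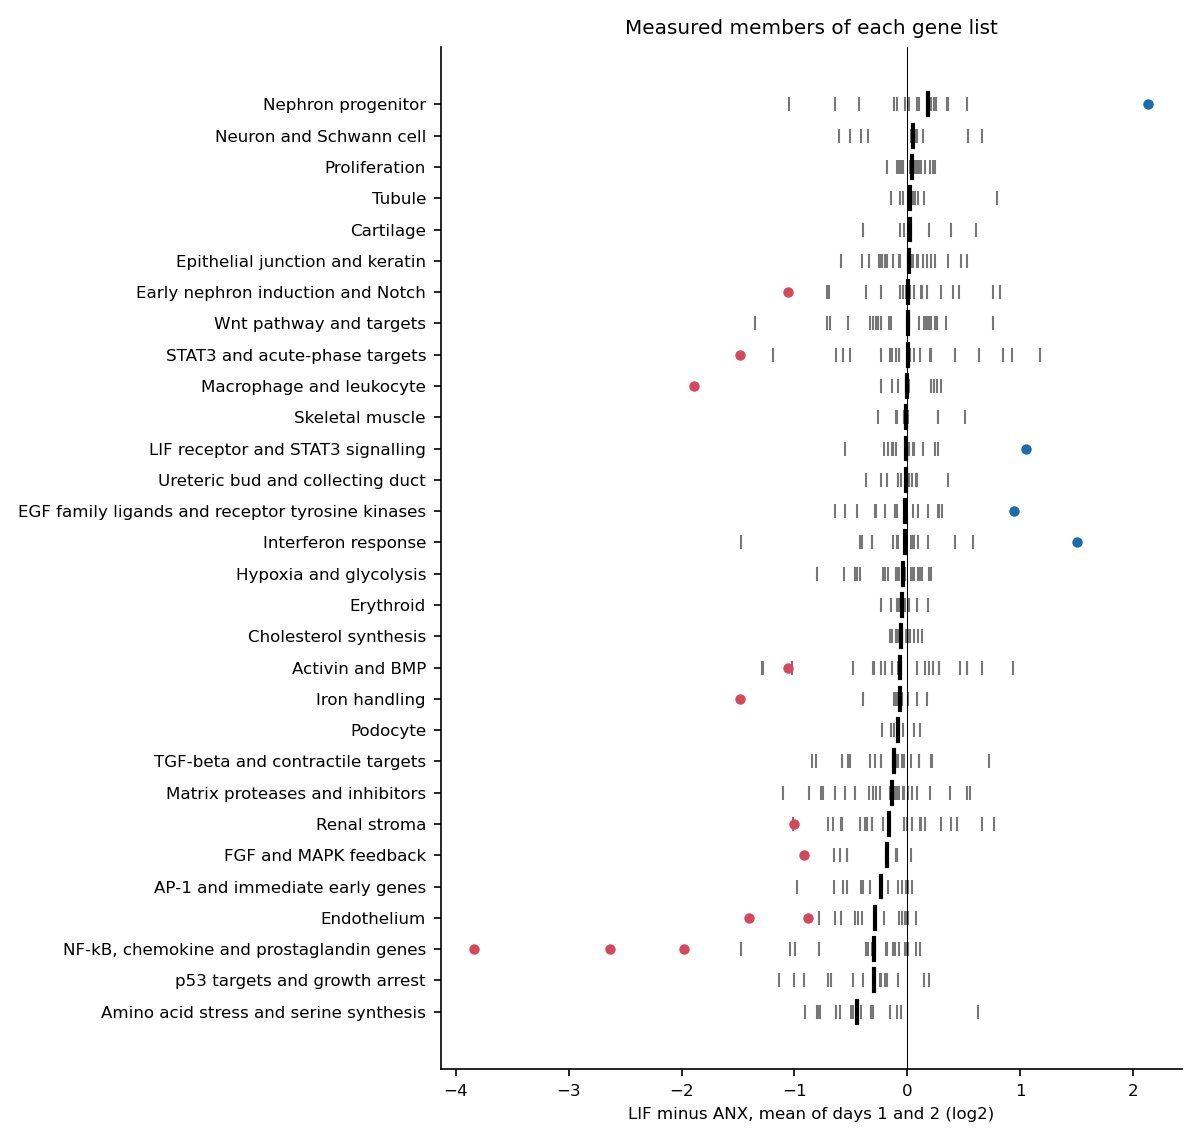
Difference between LIF and ANX (log2, mean of days 1 and 2) for the measured members of each of 30 gene lists; grey ticks are genes not called, blue and red points genes called higher under LIF and under ANX, and black bars list medians. Most lists centre near 0; amino acid stress lies lowest, with a median of -0.45 and no called member, and Cxcl1, Ptgs2 and Ccl2 stretch the NF-kB list to the left.

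Uninduced cultures of the same days gave a reference level. Their 4 arrays had dap ratios of 1.97 and 0.77 on day 1 and 1.97 and 2.04 on day 2. The LIF and ANX arrays had 0.84 to 1.37, except 2.16 and 2.35 on the day 2 replicate 2 arrays. Control 5S rRNA signals were log2 7.56 to 10.3. Those of the LIF and ANX arrays were 7.00 to 7.47, except 8.70 on LIF day 2 replicate 2. The part of array quality in the differences from control was not tested. LIF and ANX share those control arrays, so their differences from control are given side by side only. Against control, 2733 genes (24%) were called under LIF, with 11.4% higher and 12.6% lower, and 2309 (20.3%) under ANX, with 11.2% higher and 9.12% lower. Of the 31 genes higher under LIF than ANX, 26 were called higher than control under LIF, and under ANX 3 were called higher and 2 lower than control. Of the 40 genes higher under ANX, 26 were called higher than control under ANX, while under LIF 2 were called higher and 9 lower. The 31 and the 40 were chosen on these same LIF and ANX arrays, so such counts are a description only.

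Eya2 was 2.38 above control under LIF and 0.25 under ANX, Igtp 1.51 and 0.01, and Gna14 1.48 and 0.00. On the other side Cxcl1 was 0.39 above control under LIF and 4.23 under ANX, Sox17 0.25 and 1.65, and Spry1 0.21 and 1.13. Some genes were raised by both and by more under one: Plet1 was 1.46 above control under LIF and 3.02 under ANX, Ptgs2 1.31 and 3.95, and Ostf1 1.64 and 0.75, each called in both comparisons. Fam171b was the reverse case, at -0.24 under LIF and -1.43 (limma adjusted p = 0.000685) under ANX, so it was below control under ANX. Mrc1, Pla2g4a and Ramp2 were below control under LIF, at -1.41, -1.19 and -0.64, and were 0.48, 0.02 and 0.24 from control under ANX.

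**Figure D4:**
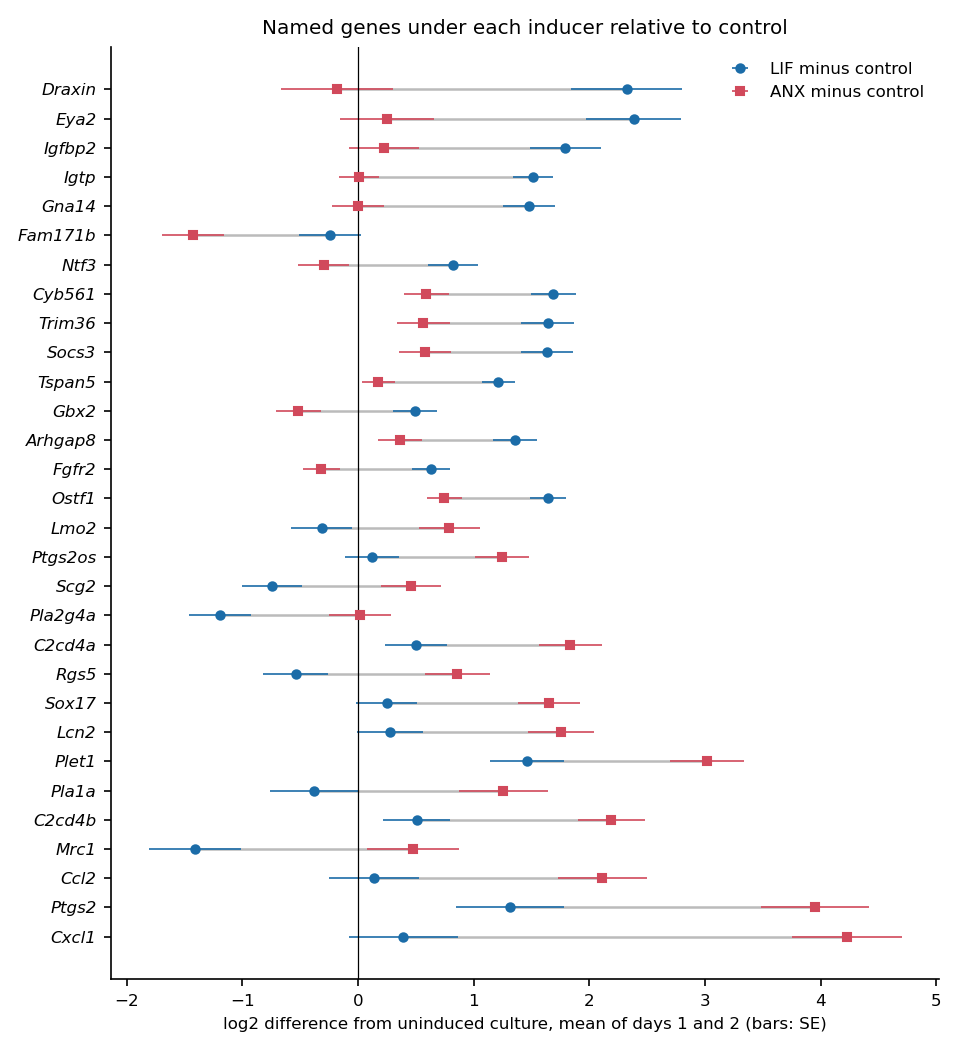
Difference from uninduced culture (log2, mean of days 1 and 2, with SE bars) under LIF, blue circles, and ANX, red squares, for the 15 genes most increased under LIF and the 15 most increased under ANX. Igtp and Gna14 lie at 1.51 and 1.48 under LIF and at 0.01 and 0.00 under ANX, Cxcl1 and Ptgs2 reach 4.23 and 3.95 under ANX, and Mrc1 and Pla2g4a lie below control under LIF.

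NGAL cultures of the same days gave a further reference. Over all genes, 5.17% were called between LIF and NGAL and 2.12% between ANX and NGAL. Of the 31 genes higher under LIF than ANX, 27 were called higher under LIF than NGAL (2.72% of all genes were) and 1 higher under ANX than NGAL (1.36%). Of the 40 higher under ANX, 11 were called higher under ANX than NGAL and 10 lower under LIF than NGAL (2.45%). Both sets were chosen on the same LIF and ANX arrays, so their excess over the shares of all genes is not independent support. Eya2 was 2.02 above NGAL under LIF and -0.11 under ANX, and Cxcl1 was 0.16 and 4.00 above it.

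The same genes were followed on days 3, 4, 5 and 7. Averaged over those days, 257 genes were called between LIF and ANX (2.26%), 83 higher under LIF (0.729%) and 174 higher under ANX (1.53%). Of the 71 genes of days 1 and 2, 68 kept their direction, 25 were called in the same direction (9 and 16) and 1 was called in the opposite direction. Of all genes tested, 45.3% were above 0 and 54.7% below on these later days.

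Cxcl1 stayed high under ANX, at 311 to 1959 on the later days against 37.9 to 67.6 under LIF (-3.90, SE 0.33, limma adjusted p = 1.07e-07). Lcn2 separated further, reaching 655 and 594 under ANX on day 5 against 32.8 and 36.7 under LIF, and its later difference was -2.82 (SE 0.20, adjusted p = 4.32e-09). Ccl2 was -2.30 and Ptgs2 -1.69 on the later days. On the LIF side Draxin (1.81), Eya2 (1.47), Gna14 (1.05), Igtp (0.85), Gbx2 (0.84) and Ntf3 (0.74) were called again.

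Other early differences were not called again. Igfbp2 under ANX rose to 1276 and 1345 by day 7, when LIF arrays read 584 and 1096, and its later difference was 0.14 (SE 0.22, limma adjusted p = 0.779). Fgfr2 (0.16), Tspan5 (0.15), Bmp2 (-0.24) and Rgs5 (-0.16) were also not called on the later days. Sox17 turned round: it was higher under LIF on days 4 and 5, at 206 and 132 then 143 and 89.3, against 90 and 82.9 then 45 and 18 under ANX, and the later difference was 0.70 (SE 0.19, adjusted p = 0.0471). The test of early against late differences was not run.

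**Figure D5:**
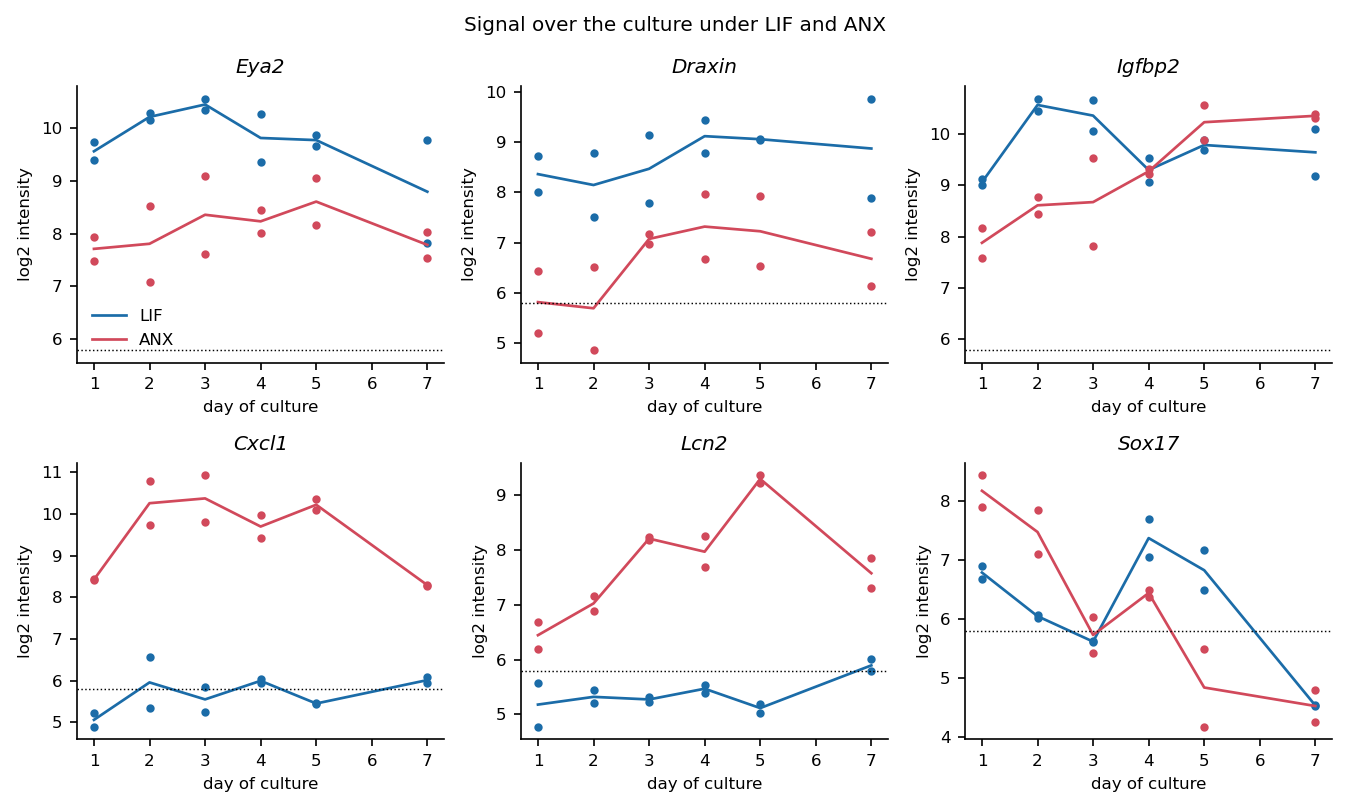
Intensity (log2) over days 1 to 7 of culture under LIF, blue, and ANX, red, for 6 genes; points are single arrays, lines join group means and the dotted line is the threshold. Eya2 and Draxin stay higher under LIF in the means until day 7, Igfbp2 under ANX reaches the LIF level by day 4, Cxcl1 and Lcn2 stay apart throughout, and Sox17 crosses after day 3.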

How the data were processed

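RNA from rat metanephric mesenchyme was hybridised to Affymetrix Rat Genome 230 2.0 arrays. The authors deposited intensity values from robust multichip analysis (RMA), per the study design and the submitters' processing notes, with no version given in the sources used here. The lowest value was 7.6, the highest 17972 and array medians were 83.3 to 88.4, a linear scale, so log2 of the deposited intensity was taken before testing.

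The platform table gave 1 gene to 20832 of 31099 probe sets, several genes to 436 and none to 9831. Of the resulting 14218 genes, 14168 were named through RefSeq by gene number. A gene with several probe sets took the one of highest mean over all arrays, and 11388 genes with a group mean above the 40th percentile were tested. There is no read depth for arrays; 2 arrays a group limit the precision.

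R 4.3.3 and limma 3.58.1 fitted a mean per group over all 42 arrays in 21 groups (21 residual degrees of freedom), with empirical Bayes variances and a trend. Contrasts were LIF minus ANX averaged over days 1 and 2, each day alone, day 2 minus day 1, and each inducer minus control. The script was tested on simulated data. Named genes were the 15 largest differences in each direction among called genes whose arrays did not overlap on either day, called members of gene lists and a set of anchor genes. The comparison, the members and the lists were chosen with earlier results of these data known, so no list test was made. The NGAL contrasts, days 3 to 7, the NF-kB motif and the fit without both day 2 replicate 2 arrays were added after the values were seen.

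Replicate numbers were not taken as pairs: replicate 1 minus replicate 2 correlated between LIF and ANX at 0.47, 0.74, -0.08, 0.33, 0.31 and 0.50 on days 1, 2, 3, 4, 5 and 7. Alternatives were other filters, renormalization, averaged probe sets, no trend, array weights, the 8 arrays alone, a replicate block, the dap ratio as a covariate, a 2-fold minimum and each array left out.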

Additional observations from a re-analysis of the deposited data

How the results depend on the processing

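For the mean of days 1 and 2, the 71 calls became 76 without a filter, 59 with a filter at the 60th percentile, 74 after renormalization, 58 with probe sets averaged, 74 without a variance trend and 89 with the dap ratio as a covariate. They became 180 with array weights (all 71 remained), 201 with only the 8 arrays in the fit (51 remained) and 31 with a 2-fold minimum. With 1 array left out they ranged from 6 to 58, the lone array being assumed to vary like those of other groups. Without both day 2 replicate 2 arrays, an alternative chosen after seeing the data, they were 19, and day 2 alone gave 1. The 17 calls of day 2 became 11 with the stricter filter, 28 after renormalization, 139 with array weights, 136 with the 8 arrays, 27 with the dap ratio and 3 to 16 with 1 array left out. Day 1 gave 1 call without a filter and 1 with array weights. The change between days gave 0 calls by limma under every alternative run. The causes of these shifts were not tested.

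With a replicate block, 76 genes were called over both days, 58 of them among the 71, and day 2 gave 21 and day 1 gave 0. Fam171b, Mrc1, Pla1a, Pla2g4a and Lmo2 were not called with the block (adjusted p from 0.0535 to 0.114). The numbers were not taken as pairs because the labels name no shared source and the rule asked for a correlation over 0.1 on every day; day 3 gave -0.08, while days 1 and 2 gave 0.47 and 0.74. No called gene reversed its direction under any alternative or on either day alone. Of the called genes, 5 (Pla1a, B2m, Gpx2, Map3k20 and Stc1) were called in none of the 8 fits with 1 array left out. Signal over background limits 18 called genes, of which 17 had 1 to 3 group means below the threshold and 1, Nptx1, had all 4 below it.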

Other observations

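Among called genes that were in no gene list and not named by the rule, a few are given here as values, chosen after they were seen. Cpt1a, which carries fatty acids into mitochondria, read 578 to 952 in uninduced culture, 324 to 569 under ANX and 194 to 295 under LIF. B2m, the light chain of class I major histocompatibility molecules, read 963 to 1522 under LIF and 2061 to 3149 under ANX, whereas Myd88, an adaptor of Toll-like and interleukin 1 receptors, was higher under LIF at 291 to 383 against 206 to 244. Gsta4, a glutathione transferase for lipid peroxidation products, read 2190 to 2968 under LIF and 1235 to 1582 under ANX. Wfdc2, a secreted protease inhibitor of epithelia, read 389 to 509 under LIF and 219 to 267 under ANX. Stc1, the secreted hormone stanniocalcin 1, read 158 to 296 under LIF and 318 to 506 under ANX.

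A few called genes with small differences on day 1 are also given, likewise chosen after their values were seen. Cds1, an enzyme of phosphatidylinositol synthesis, read 80.3 and 111 under LIF and 69.8 and 83.5 under ANX on day 1, then 272 and 300 against 77.1 and 94.4 on day 2. Nceh1, a hydrolase of cholesterol esters, read 135 and 125 against 149 and 128, then 62.9 and 66.6 against 139 and 141. Cdkn2a, a cell cycle inhibitor locus, read 22.3 and 17.3 against 19.9 and 21.3, then 20.9 and 15.9 against 60.6 and 55.8, so only its ANX arrays of day 2 reached the threshold; its difference over both days was -0.87, or -0.04 when floored. The change between days did not pass the limma test for any of them (adjusted p = 0.947 for Nceh1).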
